A study of Mus musculus with 11 samples.

Results

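The Iroquois genes Irx1 to Irx6 encode homeobox transcription factors and lie in 2 clusters of 3 in the mouse genome. All 6 were found by symbol among 21779 coding genes of RefSeq in the mm10 assembly. IrxA, on chromosome 13, holds Irx1, Irx2 and Irx4, and IrxB, on chromosome 8, holds Irx3, Irx5 and Irx6. The genes were chosen by the positions of peaks in these same lists, so their peaks are described here without a test. For each gene, the peaks in its span, within 5 kb of it and in the stretches between the genes of its cluster were taken from lists of Smchd1 binding sites.

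Iroquois proteins belong to the TALE class of homeobox factors, whose homeodomain carries an extra loop of amino acids, and they act early in dividing the neural tube, heart, limb and retina into regions. The clusters arose by duplication of an ancestral cluster, so that Irx1 is the counterpart of Irx3, Irx2 of Irx5 and Irx4 of Irx6. In many tissues where they are not used, such developmental genes carry Polycomb marks. Smchd1, a non-canonical SMC protein, binds chromatin and is best known for keeping genes of the inactive X silent; autosomal targets, Hox genes among them, are also known.

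ChIP-seq for Smchd1 was done on neural stem cell lines made from C57BL/6 embryos of stage E14.5. In the MNase experiment, chromatin was cut with micrococcal nuclease, and there were 2 libraries of cells homozygous for a Smchd1 GFP fusion knockin allele (1 male, 1 female), 2 of wild-type cells (1 male, 1 female) and 1 of whole cell extract (female). In the sonication experiment, chromatin was sheared for 30 min in non-ionic detergent, and there were 2 libraries of homozygous knockin cells, 2 of wild-type cells and 2 of whole cell extract, all female. The antibody to GFP was used on knockin and on wild-type cells, which lack the tag, and whole cell extract was the input. The authors deposited 1 peak list for each experiment, 2840 peaks for MNase and 2196 for sonication. Neither list gives a height or a value per library, so sequencing depth and the spread between replicates are unknown, and the neural stem cell label could not be checked against expression. The experiments differ in fragmentation and in the sex of the cells, and these cannot be told apart in a difference between the lists.

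The promoter window of Irx2 lay wholly inside an MNase peak. Each window runs from 250 bases before to 50 bases after a RefSeq start site (GRCm38.p6). Windows of 3 of the 6 Irx genes were available, those of Irx2, Irx3 and Irx4. They are shown with the window of Crnde, a long non-coding RNA gene whose window was the nearest to the peaks at Irx5. The Irx2 window is chr13:72628570-72628869 on the plus strand, that of Irx3 is chr8:91801605-91801904 on the minus strand, that of Irx4 is chr13:73260247-73260546 on the plus strand and that of Crnde is chr8:92356071-92356370 on the minus strand. Each is printed 5′ to 3′ along its own gene, and capitals mark CG dinucleotides.
Irx2: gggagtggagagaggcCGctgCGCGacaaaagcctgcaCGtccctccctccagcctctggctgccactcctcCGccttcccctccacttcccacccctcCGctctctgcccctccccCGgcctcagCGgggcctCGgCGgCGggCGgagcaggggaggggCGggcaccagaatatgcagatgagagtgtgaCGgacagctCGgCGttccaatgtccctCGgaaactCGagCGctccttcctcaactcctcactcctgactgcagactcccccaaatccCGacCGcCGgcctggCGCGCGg
Irx3: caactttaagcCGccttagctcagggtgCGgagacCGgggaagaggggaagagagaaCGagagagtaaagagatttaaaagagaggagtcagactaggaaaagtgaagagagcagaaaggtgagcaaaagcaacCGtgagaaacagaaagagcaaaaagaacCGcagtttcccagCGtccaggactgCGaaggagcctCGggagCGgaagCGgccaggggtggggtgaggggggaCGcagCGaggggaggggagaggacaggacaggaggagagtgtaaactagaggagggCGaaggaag
Irx4: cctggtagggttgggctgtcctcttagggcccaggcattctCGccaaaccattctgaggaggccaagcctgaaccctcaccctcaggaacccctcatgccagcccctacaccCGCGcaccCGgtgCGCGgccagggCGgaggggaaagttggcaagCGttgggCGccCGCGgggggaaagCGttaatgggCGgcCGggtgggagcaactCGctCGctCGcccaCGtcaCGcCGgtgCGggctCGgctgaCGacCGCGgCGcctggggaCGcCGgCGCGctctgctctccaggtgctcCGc
Crnde: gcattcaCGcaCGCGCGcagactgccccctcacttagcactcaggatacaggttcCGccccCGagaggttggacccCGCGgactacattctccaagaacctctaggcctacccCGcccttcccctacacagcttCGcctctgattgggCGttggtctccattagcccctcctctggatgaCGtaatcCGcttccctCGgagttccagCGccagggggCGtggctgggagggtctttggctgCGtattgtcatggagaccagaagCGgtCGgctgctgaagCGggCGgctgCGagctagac

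The Irx2 window held 25 CG dinucleotides and was 69.0% G+C. The peak over it, 750 bp wide, ran from 72628351 to 72629100 and also covered the start site at 72628820. The Irx4 window held 31 CG and was 70.7% G+C, and the nearest MNase peak lay 620 kb from it. Irx3 had 14 CG and 56.0% G+C, with the nearest MNase peak 556 kb away, and Crnde had 22 CG and 62.7% G+C, with the nearest peak 1330 bp away. The Irx window with the most CG was thus not the one with the peak. The motif CG, which reads the same on both strands, was present in 94.6% of the 32851 windows in the table, with a median of 7 per window. As many CG as in Irx2 occurred in 18.4% of windows, and as many as in Irx4 in 10.6%. Over all windows, 0.858% had an MNase peak. Those 282 windows had a median of 20 CG (quartiles 11 and 27). The Irx2 window falls in that range, but so do the windows of Irx3 and Crnde, which no MNase peak overlapped. The Irx4 window, also without a peak, lies above it.

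MNase peaks were found at 3 of the 6 Irx genes, Irx1, Irx2 and Irx5, against 5.28% of all coding genes with an MNase peak within 5 kb. The same 3 genes had an MNase peak overlapping the gene span itself, as had 4.13% of coding genes. The Irx genes are short, with spans from 3144 to 10034 bp, and among the 4406 coding genes of that range of length 3.61% had an MNase peak within 5 kb. Irx3, Irx4 and Irx6 had none within 300 kb. The genes were picked with these peaks in view, so the shares are a description only. Set out by counterparts, Irx2 and Irx5 both had MNase peaks, Irx4 and Irx6 both had none, and Irx1 had peaks where Irx3 had none.

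**Figure D1:**
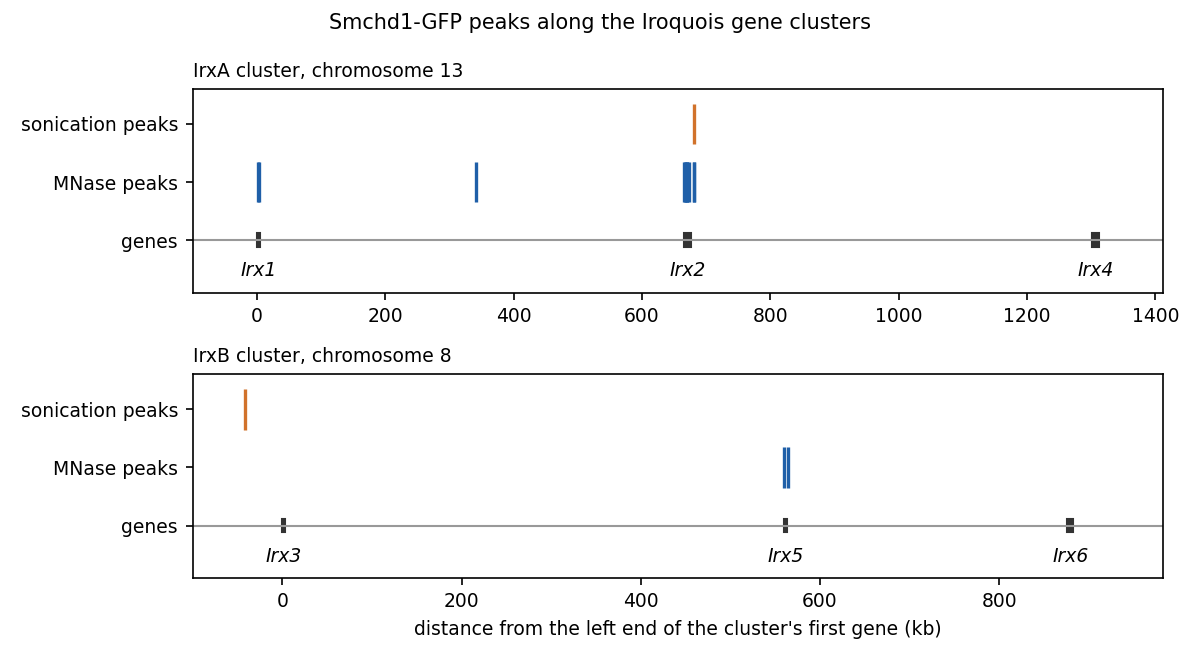
Positions of peaks along the Iroquois clusters. The horizontal axis is the distance in kb from the left end of the first gene, black boxes are genes (drawn at least 3 kb wide), blue lines are MNase peaks and orange lines sonication peaks. In each cluster the middle gene carries MNase peaks, and the right-hand gene, Irx4 or Irx6, has none near it.

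Irx2, a gene expressed in developing neural tissue, limb and other organs, had the most peaks of the family. It spans 72624430 to 72634196 on chromosome 13, and 7 MNase peaks lay within 5 kb of it. They covered 3750 bp, or 18.97%, of the gene and its flanks. Only 46 coding genes (0.211%) had as many.

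The peaks of Irx2 lay on both sides of its start site. The start site used, 72628820, lies inside the gene span, which begins at 72624430. From 72624001 to 72628350, 4 peaks lay wholly upstream of that site, 300, 1350, 300 and 300 bp wide. The first of them lay outside the span, 129 bp to its left. The others overlapped the span, so they lay upstream of this start site but within the annotated gene. The peak over the start site came next, and a peak of 450 bp followed, also inside the gene, 2681 to 3130 bases after that site. Past the right end of the gene, with left and right meaning lower and higher coordinates, a peak of 300 bp lay 4354 bp away, just inside the 5 kb limit. The next, of 1200 bp from 72639301 to 72640500, lay 5104 bp away, just outside it. Counted with it, 8 peaks were spread over 16.5 kb and filled 30.0% of that stretch.

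Several of these peaks adjoin. There was no gap between the peaks that meet at 72626400, nor between those that meet at 72628350, so that what the list gives as 7 peaks becomes 5 when peaks no more than 150 bp apart are merged. The upstream peaks and the one over the start also overlapped Gm20554, a long non-coding RNA gene, from 72623466 to 72628564. It is read from the opposite strand, its start site lies 256 bp from that of Irx2, and the promoter windows of both share 245 bp. Peaks in this stretch cannot be assigned to either gene alone.

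The sonication list had its only peak of the clusters at the same place. It ran from 72639001 to 72640350, 4804 bp past the right end of Irx2, and was 1350 bp wide. Among sonication peaks only 8 were wider, and 11, this peak included, were at least as wide. It shared 1050 bp with the MNase peak that starts at 72639301, which is 77.8% of the sonication peak and 87.5% of the MNase peak. In the whole lists, 49 sonication peaks (2.23% of that list) and 47 MNase peaks (1.65% of that list) overlapped one of the other list. These shares take in the sex chromosomes, where the lists differ. Of the sonication list 1646 of 2196 peaks were autosomal, and of the MNase list 2828 of 2840. The position, beyond the right end of the gene, is the only place in either cluster that both lists share. It did not touch the span of Irx2, its start site or its promoter window. Over all coding genes, 2.92% had a sonication peak overlapping the span, and 0.0761% of promoter windows had one.

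Irx2 was thus the member, 1 of 6, with a sonication peak within 5 kb, where 3.38% of all coding genes had such a peak. Of coding genes in the members' range of length, 0.817% had a sonication peak within 5 kb. Both lists had a peak at 0.753% of coding genes. Only 196 bp of the sonication peak fell inside the 5 kb flank, and its centre lay beyond it.

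Irx1, known from lung, limb and neural development, held 2 MNase peaks of equal width inside its span, which runs from 71958232 to 71963723 on chromosome 13. They ran from 71959051 to 71960550 and from 71960851 to 71962350, each 1500 bp wide, with 300 bp between them. The first began 819 bp from the left end of the gene and the second ended 1373 bp from the right end, so both lay clear of the gene's ends. Of the MNase list, 5.07% was at least as wide. They covered 3000 bp, or 19.4%, of Irx1 and its flanks, a fraction near that of Irx2. The nearest sonication peak was the one beside Irx2, 675 kb away.

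Irx5, which is needed for retinal bipolar cells and for the repolarisation gradient of the heart, had 2 MNase peaks, at its ends. It spans 92357796 to 92361456 on chromosome 8. A peak of 900 bp, from 92357701 to 92358600, covered the left end of the gene. A peak of 600 bp, from 92362501 to 92363100, lay 1044 bp past the right end. Between them 3900 bp had no peak. Together they covered 1500 bp, or 10.98%, of the gene and its flanks, a smaller part than at Irx1 or Irx2. As many MNase peaks as at Irx1 and Irx5, 2 or more, were found at 1.34% of coding genes. The first peak lay on the side of Crnde, whose span ends at 92356120, and overlapped neither that gene nor its promoter window. The nearest sonication peak lay 600.1 kb from Irx5.

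**Figure D2:**
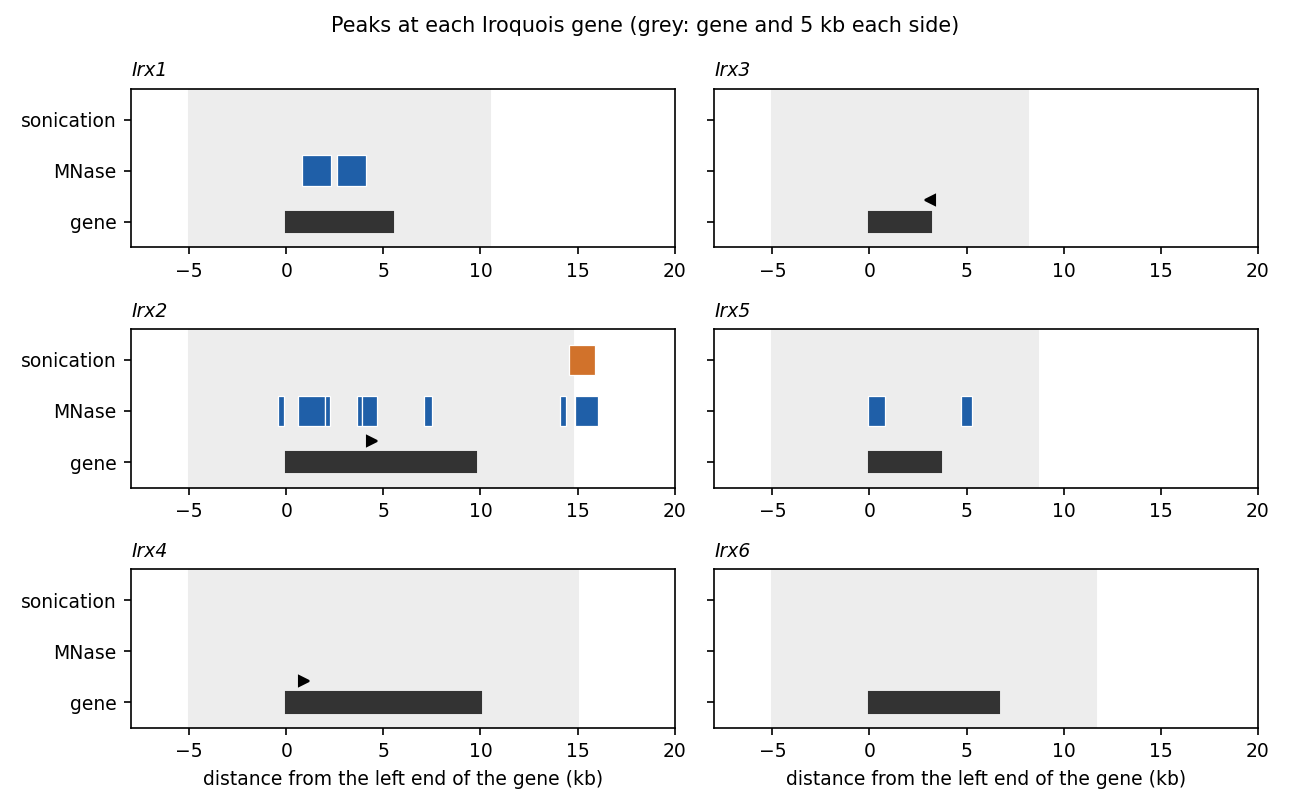
Peaks at each Irx gene, with counterparts side by side. The horizontal axis is the distance in kb from the left end of the gene, black boxes are genes, triangles are RefSeq start sites pointing along the gene where the tables give one, blue boxes are MNase peaks and orange boxes sonication peaks, both to scale. The 7 MNase peaks within 5 kb of Irx2 lie on both sides of its start, while Irx3, Irx4 and Irx6 have no peak in view.

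The other 3 members had no peak of either list within 5 kb. Irx3, which sets a boundary between progenitor domains of the ventral neural tube, spans 91798511 to 91801654 on the minus strand of chromosome 8. Its nearest MNase peak was the one at Irx5, 556 kb away. A sonication peak of 750 bp, from 91756951 to 91757700, lay 40.8 kb from Irx3, beyond its 3′ end and outside the cluster, in the stretch between Irx3 and the RNA demethylase gene Fto. Of the sonication list, 4.96% was at least as wide. Irx4, a gene of the ventricular heart muscle, spans 73259589 to 73269622 and lay 619 kb from the nearest MNase peak and 592 kb from the nearest sonication peak. Irx6, a gene of retinal bipolar cells, spans 92674289 to 92680956 and lay 311 kb from the nearest MNase peak and 917 kb from the nearest sonication peak.

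Between the genes there was little. The stretch from Irx1 to Irx2, of 661 kb, held a single MNase peak more than 5 kb from a member, 300 bp wide from 72299101 to 72299400, with no RefSeq gene at it. From Irx2 to Irx4, 625 kb, the peak at 72639301 was the only one beyond the 5 kb flanks. The 556 kb between Irx3 and Irx5 had 0 peaks of either list. The 313 kb between Irx5 and Irx6 had only the MNase peak that lies 1044 bp from Irx5. These stretches hold no other coding gene and no microRNA gene in RefSeq, but 12 and 10 non-coding genes and pseudogenes lie in or within 5 kb of IrxA and IrxB. Of these 22, Gm20554 was the only one whose span had an MNase peak, and Crnde had one within 5 kb. Irx3os, read away from Irx3 on the opposite strand, had none.

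Counted by cluster, IrxA (1.31 Mb, 71958232 to 73269622) with 5 kb on each side held 11 MNase peaks, or 8.32 per Mb, against 1.54 per Mb over chromosome 13 and 1.18 per Mb over the autosomes. Peaks covered 0.624% of IrxA, against 0.0912% of the chromosome. IrxB (0.882 Mb, 91798511 to 92680956) held 2 MNase peaks, or 2.24 per Mb, against 1.05 per Mb over chromosome 8, and they covered 0.168% of it, against 0.0570% of the chromosome. Of the 13 MNase peaks in the clusters, 12 lay within 10 kb of a member. The 8 at Irx2 made up 61.5% of the peaks and 50.8% of the bases in peaks. In sonication, IrxA had 1 peak, or 0.757 per Mb, close to the 0.776 per Mb of its chromosome, and IrxB had 0.

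Around the clusters the distance to the next peak differed between the lists. The next MNase peak lay 1.32 Mb to the left of IrxA and 1.35 Mb to its right, and 0.928 Mb to the left of IrxB and 3.27 Mb to its right. The median gap between neighbouring autosomal MNase peaks was 367 kb, and 27.8% of gaps were over 1 Mb. Those gaps run from peak to peak, whereas the distances around the clusters run from the outer gene to the next peak. The measures are thus unlike in both lists, and how often a gap exceeds 3.27 Mb was not counted. The next sonication peak lay 748 kb to the left of IrxA and 592 kb to its right, and 40.8 kb to the left of IrxB and 3.72 Mb to its right. In the sonication list the median gap between neighbouring autosomal peaks was 854 kb, and 44.0% of gaps were over 1 Mb. The nearest coding genes had no peak of either list within 5 kb. These were Adamts16, a metalloproteinase gene 1116 kb from Irx1, Ndufs6, a gene of mitochondrial complex I 50.3 kb from Irx4, Fto, 130.1 kb from Irx3, and Mmp2, a gelatinase gene 146 kb from Irx6. Ndufs6 is nearer to Irx4 than any peak is. Neither cluster lay in a broad domain of the authors' domain list. Its domain on chromosome 13 ends 5.08 Mb from IrxA, and it has 0 on chromosome 8.

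MNase peaks in the clusters ranged upward from the smallest width in the list. They ran from 300 to 1500 bp with a median of 600 bp, where the whole MNase list had a median of 450 bp and a smallest width of 300 bp. Of the 13, 5 had the smallest width, as had 38.2% of the list. All of those 5 were in IrxA, 4 at Irx2 and the lone peak between Irx1 and Irx2. By gene, the median width was 375 bp for the 8 peaks at Irx2, 1500 bp for the 2 at Irx1 and 750 bp for the 2 at Irx5. The sonication peak beside Irx2, at 1350 bp, compares with a median of 300 bp in its list. Peak starts lie on a grid of 150 bp in both lists, so differences of 1 step between widths cannot be read. That holds for the MNase medians of 600 and 450 bp.

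**Figure D3:**
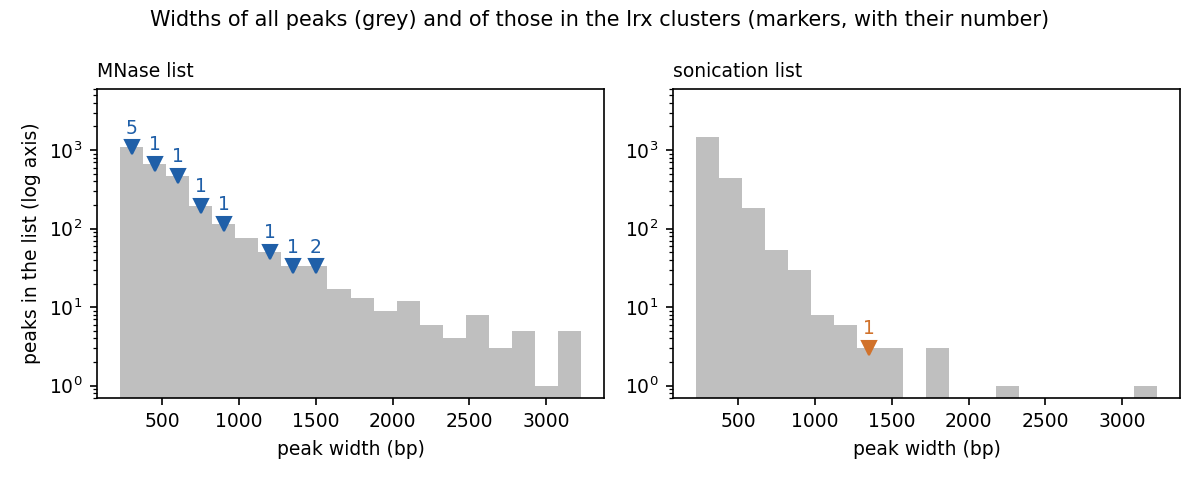
Widths of peaks in each list. The horizontal axis is width in bp and the vertical axis, on a log scale, the number of peaks in the list at that width (grey bars), and coloured triangles mark the widths found in the Irx clusters with the number of Irx peaks above them. The Irx MNase peaks run from 300 to 1500 bp and the sonication peak beside Irx2, at 1350 bp, is near the wide end of its list. MNase peaks wider than 3150 bp, 28 in all, are not drawn.

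Other TALE homeobox genes had at most 4 MNase peaks each. Of 12, 4 had an MNase peak within 5 kb, or 33.3%, and 0 had a sonication peak. Among them were Meis2 with 4 peaks of up to 1350 bp, and Meis1 and Pbx3 with 1 each, of 750 and 600 bp. Meis and Pbx proteins are partners of Hox proteins on DNA. These are long genes, of 206 kb (Meis2), 139 kb (Meis1) and 201 kb (Pbx3), so their peaks are sparser than those of the short Irx genes.

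Of 21 genes that pattern the neural tube and midbrain, among which Irx3 works, 7 had an MNase peak within 5 kb, or 33.3%. Pax3, a gene of the dorsal neural tube, had 9, Nkx6-1, of ventral progenitors, had 7 and Msx1, of the dorsal midline, had 5. En1 and En2, of the midbrain and hindbrain, Nkx2-9, of the ventral tube, and Ptch1, the receptor for Shh, had 1 each. Msx1 was the only one of the 21 with a sonication peak, 1200 bp wide, and so shared with Irx2 the presence of peaks of both lists. At Msx1 the MNase peaks covered 5100 bp.

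Beside other families of developmental transcription factors, the share of Irx genes with an MNase peak, 3 of 6, lay within the range of the rest. Among Pax genes it was 5 of 9 (55.6%), among Nkx genes 6 of 14 (42.9%) and among Tbx genes 4 of 13 (30.8%). The largest number of MNase peaks at a gene was 7 for the Irx genes (Irx2), 9 for the Pax genes (Pax3), 7 for the Nkx genes (Nkx6-1) and 6 for the Tbx genes (Tbx18). These genes differ in length, with spans of 9.77 kb (Irx2), 95.9 kb (Pax3), 5.53 kb (Nkx6-1) and 28.5 kb (Tbx18). The shares and counts of the families were not adjusted for gene length. In sonication, 1 of 6 Irx genes had a peak, with 0 of 9 Pax, 0 of 14 Nkx and 1 of 13 Tbx genes, the last being Tbx22 on the X. Differences between families of this size were not tested, since the members were chosen with the peaks known. Pax3, Nkx6-1 and Nkx2-9 are also among the patterning genes above, so the lists are not separate.

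**Figure D4:**
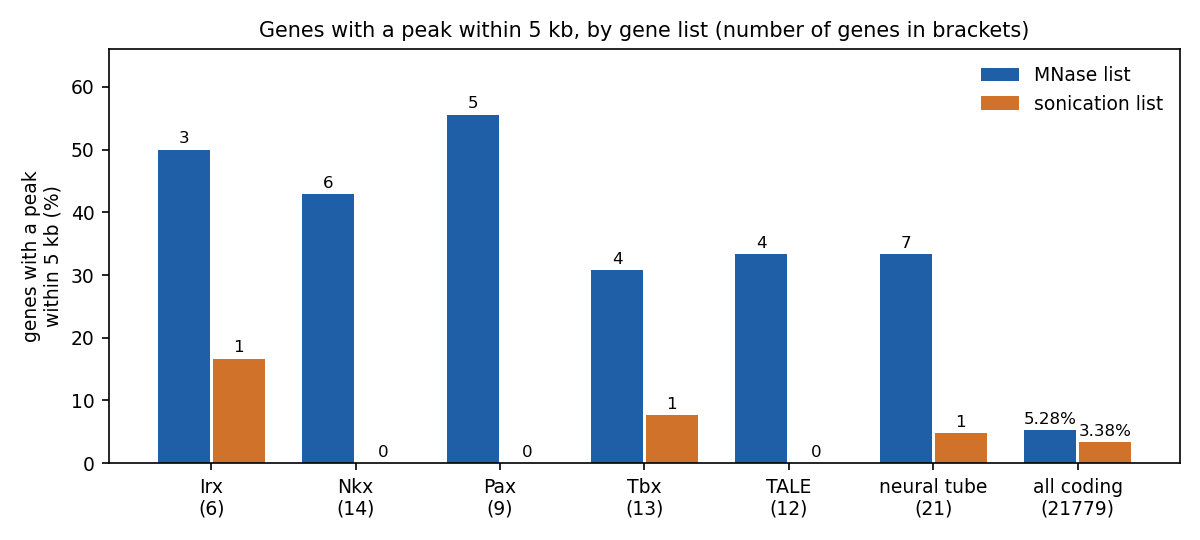
Share of genes with a peak within 5 kb by gene list. Bars give the percentage of genes with an MNase peak (blue) or a sonication peak (orange), numbers above the bars count the genes with a peak, and numbers in brackets below count the genes in the list; the last pair is all coding genes. Irx, with 3 of 6 genes in the MNase list, lies between Pax and Nkx, and the MNase bars of all gene lists lie above the 5.28% of coding genes.

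Hoxb5 and Hoxc8 were the coding genes most like Irx2 in number of peaks. Likeness was the summed difference from Irx2 in the number of MNase and of sonication peaks within 5 kb, over the 2 lists. These homeobox genes, which pattern the body axis, had 7 MNase peaks and 1 sonication peak each, a difference of 0, which only these 2 genes had. At a difference of 1 stood 19 genes, Pax9 and Nkx6-1 among them. Of these, Pcdha1, Pcdha2 and Pcdha3, cell adhesion genes of the alpha protocadherin cluster, were nearest to Irx2 in bases covered, with 7 MNase and 0 sonication peaks each. The spans of these 3 genes overlap and share their peaks, so they count as a single site. The ranking rests on the sonication peak beside Irx2, of which only 196 bp fell within 5 kb of the gene. Were that peak not counted, Irx2 would match genes with 7 MNase and 0 sonication peaks, such as Pcdha1, rather than Hoxb5 and Hoxc8. MNase peaks covered 3750 bp within 5 kb of Irx2, against 5410 bp at Hoxb5, 12237 bp at Hoxc8 and 2700 bp at Pcdha1. Hoxb5 and Hoxc8 stand among further Hox genes with peaks, whereas the coding gene with an MNase peak nearest to Irx2 is Irx1, 661 kb away.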

How the data were processed

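The labels put the 11 libraries in 6 groups by title. Per the submitters' processing notes, the tools MACS2, Bowtie 0.12.9 and bcl2fastq and the build mm10 are listed without a role. The MNase list names SeqMonk as the source of its peaks, per the file headers and cells. The part that wild-type and input libraries played in peak calling is not stated. Only the start and end of each deposited peak were used, since the value column is empty in every row. Each experiment has 1 list, with no value per library, so no library, group or replicate was compared and no p-value was computed.

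Genes, as spans without strand, and promoter windows came from RefSeq tables of GRCm38.p6, the assembly that mm10 denotes. Records placed in the assembly gap that opens each chromosome other than Y, its first 3 Mb, were dropped (340), and 49603 were used. A peak was counted at a gene where it shared at least 1 bp with the span and 5 kb on each side. Density per chromosome was taken from 3 Mb to the last gene or peak. The overlap counts were checked on simulated data. Genes were named by a rule: the 6 members, the nearest coding gene beyond each end of a cluster, genes of the pathway lists with a peak, and the 5 coding genes most like Irx2. Some genes that the rule selects are left out of the text. Genes of the compared families and non-coding genes were named after their peaks were seen. The members, lists and rules were chosen with earlier results of these data known. Counts were made with Python 3.11.15 and pandas 2.3.3.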

Additional observations from a re-analysis of the deposited data

How the results depend on the processing

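No paired analysis was possible because each experiment has 1 peak list with no value per library, and no replicate could be left out for the same reason. Of 54 alternative values for 21 results, 41 stayed within 1.5 times the reported count or coverage, or within the 95% Wilson interval of a reported share of genes. The members with an MNase peak numbered 3 with flanks of 0, 1, 10, 25 and 50 kb, with peaks wider than 300 bp and with peak centres. With peaks wider than 300 bp, the MNase peaks of IrxA numbered 6 in place of 11. The single member with a sonication peak within 5 kb became 0 with flanks of 0 or 1 kb or when the centre of the peak had to be within 5 kb, and 2 with a flank of 50 kb, which takes in the peak near Irx3. With 50 or 100 kb added on each side, IrxB had 1 sonication peak in place of 0, and with 100 kb peaks covered 0.0693% of it. Over all RefSeq genes the share with an MNase peak within 5 kb was 3.72%, and the share with a sonication peak 2.25%. Autosomal coding genes gave 2.95% for sonication. Coding genes of the members' range of length, an alternative chosen after seeing the data, gave 3.61% for MNase and 0.817% for sonication. Coverage with peaks wider than 300 bp was likewise added later. Depth limits what can be read from a missing peak, because the reads behind the lists were not analysed here: at Irx3, Irx4 and Irx6 a peak was not listed, which does not show that Smchd1 is absent there.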

Other observations

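The 46 coding genes with at least as many MNase peaks within 5 kb as Irx2 were counted after their values were seen. Sorted by symbol alone, 18 were named as Hox genes and 9 as protocadherin genes, and 19, Irx2 included, had neither name. Gene models without a family name, such as Gm37013, Gm38666 and Gm38667, fall in the 19 whatever cluster they belong to. These 19 held other developmental transcription factor genes, among them Isl1, a LIM homeobox gene of motor neurons, Gata4, Pax9 and Tfap2a. A sonication peak within 5 kb was present at 18 of the 46, against 3.38% of all coding genes. Among coding genes with an MNase peak within 5 kb it was present at 164 of 1151 (14.2%). Overlapping genes, such as Pcdha1, Pcdha2 and Pcdha3, share peaks, so the 46 are not separate sites and the shares were not tested.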
